A study of Mus musculus with 23 samples.

Results

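The genes described here were Il6, Il11, Lif and Il1b, which encode cytokines, Il6ra, Il6st and Osmr, which encode receptor chains, Stat3, Socs3 and Ptx3. They were taken by name from the annotation of the array, and the probes of a gene were averaged. All 10 were measured, out of 21892 named genes. Il1b and Ptx3 do not belong to the interleukin 6 family by sequence. Il1b encodes the inflammatory cytokine interleukin 1 beta, and Ptx3 encodes pentraxin 3, a secreted pattern recognition protein. Each gene had 1 probe except Stat3, which had 2.

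Cytokines of the interleukin 6 family bind a ligand-specific receptor chain that pairs with the shared signalling chain gp130, the product of Il6st. The receptor complex activates Janus kinases, which phosphorylate the transcription factor STAT3. STAT3 induces Socs3, whose product binds gp130 and shuts the signal down. In the heart this pathway is known for its part in cardiomyocyte growth and survival and in inflammation, and interleukin 1 beta and tumour necrosis factor induce both Il6 and Ptx3 through NF-kB.

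Ventricular RNA of 23 male mice was hybridised to 1 array each, and expression is the log2 ratio of heart RNA (Cy5) over a common reference (Cy3), a pool of RNA from spleen, kidney, heart, brain and liver. The 5 Ctrl mice were non-transgenic and untreated, and the 5 Ctrl-Aldo mice were non-transgenic and received aldosterone, the adrenal steroid that binds the mineralocorticoid receptor. The 7 MR-Cardio mice carried a transgene that overexpresses this receptor in cardiomyocytes and were untreated, and the 6 MR-Cardio-Aldo mice carried it and received aldosterone. The labels give a treatment duration of 7 days in all groups. The promoter that drives the transgene, the number of founder lines, the dose of aldosterone, the strain and the age are not stated in the labels. The design asks which cardiac genes aldosterone regulates in either genotype and which the receptor transgene changes.

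The gene of the receptor, Nr3c2, followed the labels, with log2 ratios of 0.02 to 0.55 over the 10 non-transgenic mice and 2.49 to 4.83 over the 13 transgenic mice. All 9 ventricular cardiomyocyte markers had a median ratio above 0, and all 8 liver markers and 4 kidney markers had one below 0. Of 6 brain markers 1 had a median above 0, Snap25 at 0.89. Array medians lay between −0.04 and 0.12. Spike-in probes, which report RNA added in known amounts, differed with genotype. Their slope was 0.964 to 0.982 in the 10 non-transgenic mice and 1.003 to 1.029 in the 13 transgenic mice. The spike-in offset was below −0.3 in MR-Cardio mice 3, 4 and 7 and MR-Cardio-Aldo mice 4 and 6, and between −0.04 and 0.33 in all 10 non-transgenic mice. Slope and genotype cannot be told apart, and member calls that change without the 5 mice of low offset are given with both values.

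Differences were tested with limma over all 21892 genes, and a gene was said to rise or fall when its Benjamini-Hochberg adjusted p was under 0.05. A value is the log2 ratio of 1 mouse or the mean ± SD of a group. A difference is a log2 difference between groups ± its standard error. The reference pool is common to all arrays, so groups were compared for 1 gene at a time. Between genotypes such a comparison also carries the difference in spike-in slope given above. The ratio of 1 gene cannot be set against that of another. Because whole ventricle was measured, more RNA per cell and more cells of a type that expresses a gene cannot be told apart.

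Promoters of the 3 genes on which most of the results turn are shown first. The motif types matched in Ptx3 and Il6 are partly shared, and that in Socs3 is another. They were taken from RefSeq (GRCm38.p6), as 300 bases from 250 before to 50 after the annotated start, and read in the direction of transcription. Capitals mark motif matches. The positions are chr3:66219637-66219936 on the plus strand for Ptx3, chr5:30012864-30013163 on the plus strand for Il6 and chr11:117969317-117969616 on the minus strand for Socs3.
Ptx3: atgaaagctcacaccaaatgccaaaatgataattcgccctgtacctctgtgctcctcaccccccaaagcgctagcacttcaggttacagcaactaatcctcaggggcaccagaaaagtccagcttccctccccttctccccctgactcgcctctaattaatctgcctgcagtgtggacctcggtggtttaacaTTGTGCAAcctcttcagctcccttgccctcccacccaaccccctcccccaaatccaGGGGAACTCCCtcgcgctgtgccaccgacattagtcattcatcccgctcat
Il6: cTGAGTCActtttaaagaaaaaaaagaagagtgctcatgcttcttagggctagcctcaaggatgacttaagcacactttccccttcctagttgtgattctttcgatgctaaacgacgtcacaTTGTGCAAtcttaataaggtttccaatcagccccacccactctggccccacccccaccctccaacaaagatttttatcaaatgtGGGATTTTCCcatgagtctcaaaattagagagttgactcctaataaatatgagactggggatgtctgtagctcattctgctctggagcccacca
Socs3: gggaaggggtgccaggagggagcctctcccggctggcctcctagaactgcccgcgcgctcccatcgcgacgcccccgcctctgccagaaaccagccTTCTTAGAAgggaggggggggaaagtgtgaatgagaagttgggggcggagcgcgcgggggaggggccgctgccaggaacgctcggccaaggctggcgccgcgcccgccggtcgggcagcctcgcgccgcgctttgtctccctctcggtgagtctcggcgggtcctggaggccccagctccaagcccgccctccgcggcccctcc

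Motifs were searched on both strands. The Ptx3 window held 2 overlapping kappaB matches, the site type bound by NF-kB, which together read GGGGAACTCCC at its start site, and 1 C/EBP match (TTGTGCAA, motif TTGCNNAA) that began 57 bases before the start. The Il6 window held 1 kappaB match (GGGATTTTCC) 44 bases before the start, 1 C/EBP match of the same letters as in Ptx3 and 1 AP-1 match (TGAGTCA, motif TGANTCA). The Socs3 window held 1 STAT match (TTCTTAGAA, motif TTCNNNGAA) that began 154 bases before the start. Over 32851 RefSeq windows of this length, 8.46% held a kappaB match, 10.8% a C/EBP match, 7.81% an AP-1 match and 8.3% a STAT match. Of the other members, Lif held kappaB and AP-1 matches, Osmr held an AP-1 match, and the windows of Il1b, Il6ra, Il6st and Stat3 held none of these. Il11 held an AP-1 match in its window at chr7:4778092-4778391 and no match in that at chr7:4782808-4783107. The palindrome of steroid receptors, GNACA and TGTNC parted by 3 bases, was in no window of the 10 members and in 0.47% of all windows. A match describes letters in these windows and does not show binding.

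In untreated hearts Ptx3 and Il6ra rose in MR-Cardio mice. Under aldosterone Ptx3, Il6ra, Il6, Socs3 and Osmr were higher in MR-Cardio-Aldo than in Ctrl-Aldo mice, and no member's genotype difference itself differed between treatments at the threshold. Ptx3 was 5.70-fold higher in untreated MR-Cardio hearts and 8.51-fold higher under aldosterone. Il6 was 13.3-fold higher in MR-Cardio-Aldo than in Ctrl-Aldo hearts. Aldosterone changed none of the 10 genes at the threshold in either genotype. The untreated genotypes differed in 13.6% of all genes (5.79% higher and 7.82% lower in MR-Cardio), against 2 of the 10 members. Under aldosterone 25.1% of all genes differed (10.7% higher and 14.4% lower), against 5 of the 10 members. With both genotype differences averaged, 6 of the 10 rose and 35.1% of all genes passed (15.7% higher and 19.3% lower). No member fell with genotype.

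Il6 encodes the founding ligand of the family. Its log2 ratios were −0.26, −0.26, −1.97, −0.73 and −1.41 in Ctrl mice and −2.04, −1.50, −1.58, −0.02 and −0.20 in Ctrl-Aldo mice. They ran from −0.50 through a median of 1.12 to 2.32 in MR-Cardio mice, and from 1.30 through a median of 2.00 to 5.56 in MR-Cardio-Aldo mice. The 2 non-transgenic groups overlapped, 6 of 7 MR-Cardio mice lay above every Ctrl mouse, and all 6 MR-Cardio-Aldo mice lay above every Ctrl-Aldo mouse. Such a complete separation upward under aldosterone was seen in 6.26% of all genes and in 4 members, Il6, Il6ra, Socs3 and Ptx3.

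Group means of Il6 stood in the order Ctrl-Aldo (−1.07 ± 0.90), Ctrl (−0.92 ± 0.75), MR-Cardio (1.00 ± 1.11) and MR-Cardio-Aldo (2.66 ± 1.58). The genotype difference was 3.73 ± 0.66 under aldosterone (adjusted p = 0.000336). In untreated mice it was 1.93 ± 0.64, with an adjusted p of 0.0504. That p lay next to the threshold and fell on either side of it under other settings. Without the 5 mice of low spike-in offset the untreated difference was 1.28 (adjusted p = 0.374), and the difference under aldosterone was 4.14 (adjusted p = 0.000832). MR-Cardio-Aldo mouse 1 held the highest Il6 value, and without it the difference under aldosterone was 3.15 (adjusted p = 0.000377).

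Il11 encodes a gp130 ligand known from fibroblasts, and Lif encodes leukemia inhibitory factor, which signals through the LIF receptor and gp130. Neither passed the test in any of the 7 comparisons. Il11 ratios ran from 0.53 to 1.27 in Ctrl, from 0.43 to 1.14 in Ctrl-Aldo, from 0.36 to 2.24 in MR-Cardio and from 0.55 to 2.52 in MR-Cardio-Aldo hearts, so that all 4 groups overlapped. The genotype difference of Il11, averaged over treatments, was 0.27 with a 95% confidence interval of −0.20 to 0.73. Lif ratios ran from 0.41 to 2.13, −0.06 to 1.30, 0.59 to 1.6 and −0.07 to 1.66 in the same order of groups, and its averaged genotype difference was −0.08, with an interval of −0.55 to 0.39.

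Il1b ratios were −3.75, −1.71, −3.37, −3.80 and −3.57 in Ctrl mice and −1.93, −1.50, −2.81, −2.62 and −4.18 in Ctrl-Aldo mice. They ran from −3.0 through a median of −1.97 to −1.07 in MR-Cardio mice and from −3.30 through a median of −1.72 to −1.14 in MR-Cardio-Aldo mice. Ctrl mouse 2 stood apart from the other Ctrl mice, and all 4 groups overlapped. Averaged over treatments, Il1b rose by 0.98 ± 0.33 in the transgenic genotype (adjusted p = 0.0254). The adjusted p was 0.139 without the 5 mice of low offset and 0.0556 without Ctrl-Aldo mouse 5. The difference was 1.27 ± 0.46 in untreated mice (adjusted p = 0.0706) and 0.69 ± 0.48 under aldosterone (adjusted p = 0.319).

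**Figure D1:**
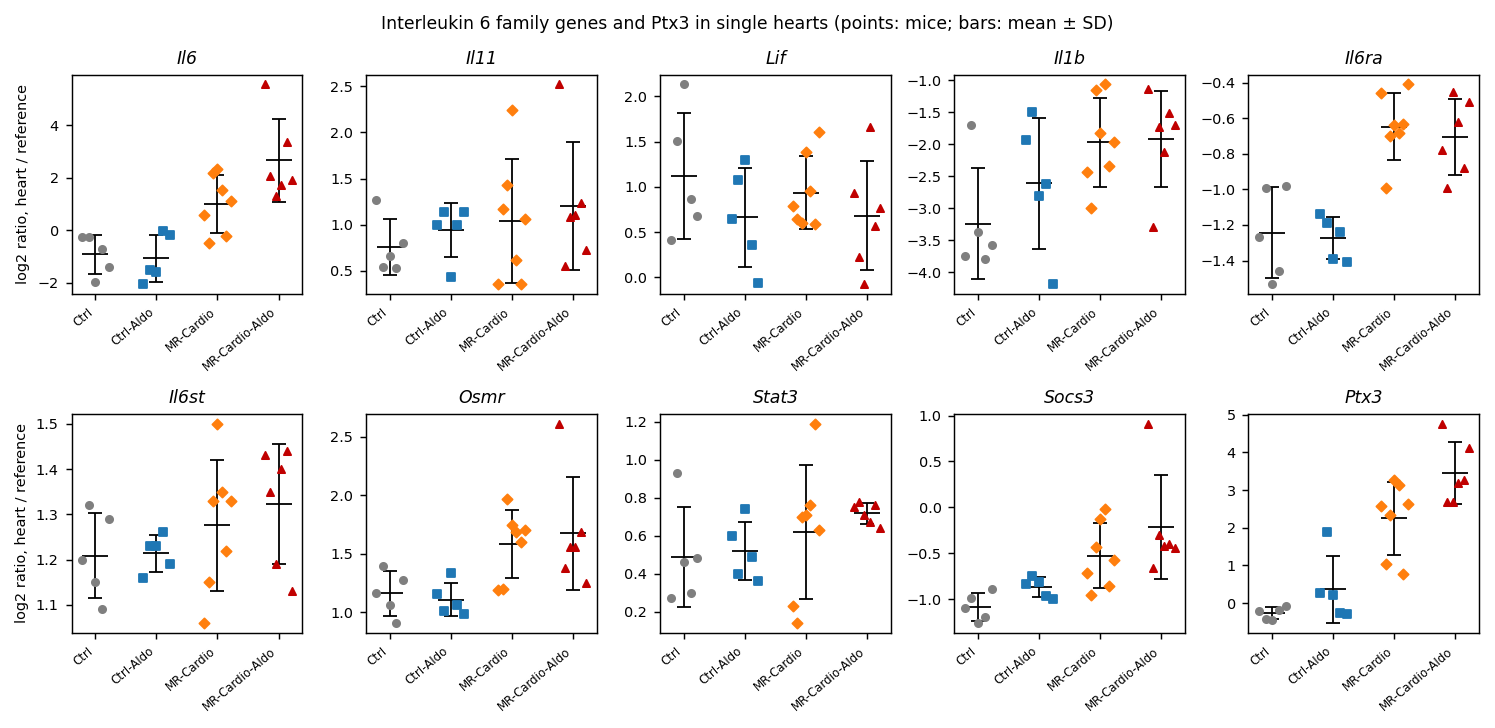
Log2 ratio of heart over reference (vertical axes) of the 10 genes in each group (horizontal axes), with 1 point per mouse and bars for mean ± SD. All MR-Cardio points of Ptx3 lie above all Ctrl points, and the groups of Il11, Lif, Il6st and Stat3 overlap.

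Il6ra encodes the chain that binds interleukin 6. Its log2 ratios were −1.27, −0.99, −1.53, −1.46 and −0.98 in Ctrl mice and −1.14, −1.19, −1.39, −1.24 and −1.41 in Ctrl-Aldo mice. They ran from −0.99 through a median of −0.64 to −0.41 in MR-Cardio mice and from −0.99 through a median of −0.70 to −0.45 in MR-Cardio-Aldo mice. The 2 non-transgenic groups lay low and the 2 transgenic groups high, and mice within a genotype overlapped whatever the treatment. Il6ra rose by 0.60 ± 0.12 in untreated hearts (1.51-fold, adjusted p = 0.00169) and by 0.57 ± 0.12 under aldosterone (1.48-fold, adjusted p = 0.00151). Without the 5 mice of low offset both differences still passed, at 0.55 (adjusted p = 0.0312) and 0.50 (adjusted p = 0.0177).

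Osmr encodes the chain that pairs with gp130 to bind oncostatin M. Its ratios were 1.17, 1.40, 1.06, 0.91 and 1.28 in Ctrl mice and 1.16, 1.01, 1.34, 1.06 and 0.99 in Ctrl-Aldo mice. They ran from 1.19 through a median of 1.69 to 1.97 in MR-Cardio mice and from 1.25 through a median of 1.56 to 2.61 in MR-Cardio-Aldo mice. In each treatment 5 transgenic mice lay above every non-transgenic mouse. Osmr rose by 0.56 ± 0.19 under aldosterone (1.48-fold, adjusted p = 0.0297) and by 0.49 ± 0.13 averaged over treatments (adjusted p = 0.005), while the untreated difference was 0.42 ± 0.18 (adjusted p = 0.126). The difference under aldosterone was 0.38 without MR-Cardio-Aldo mouse 1 (adjusted p = 0.049). It did not pass without Ctrl-Aldo mouse 2, 4 or 5, with adjusted p of 0.0639, 0.057 and 0.063. Nor did it pass with the spike-in offset as a covariate or with the compared groups alone. Of 12 settings other than leaving out 1 mouse, Osmr passed in 9. Over these 12 its difference was as low as 0.35 and its adjusted p as high as 0.101.

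Il6st, the gene of gp130, lay between 1.06 and 1.5 on all 23 arrays and passed in no comparison. Its averaged genotype difference was 0.09 ± 0.05, with an interval of −0.02 to 0.20. Stat3 lay between 0.14 and 1.19 and also passed in no comparison, with an averaged genotype difference of 0.17 ± 0.10 and an interval of −0.04 to 0.38. The 2 Stat3 probes did not move alike. One (A_51_P201480) had group means of −0.35, −0.27, −0.09 and 0.06 in Ctrl, Ctrl-Aldo, MR-Cardio and MR-Cardio-Aldo hearts, and the other (A_55_P1991219) had means of 1.33, 1.31, 1.34 and 1.38. Array ratios of Stat3 RNA do not report phosphorylation of the protein.

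Socs3 encodes the feedback inhibitor of gp130. Its log2 ratios were −1.10, −0.99, −1.26, −1.19 and −0.89 in Ctrl mice and −0.83, −0.75, −0.81, −0.97 and −1.0 in Ctrl-Aldo mice. They ran from −0.96 through a median of −0.57 to −0.02 in MR-Cardio mice and from −0.66 through a median of −0.41 to 0.91 in MR-Cardio-Aldo mice. All 6 MR-Cardio-Aldo mice lay above every Ctrl-Aldo mouse, and 6 of 7 MR-Cardio mice lay above every Ctrl mouse. MR-Cardio-Aldo mouse 1 was the single heart with a Socs3 ratio above 0.

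Socs3 means stood in the order Ctrl (−1.09 ± 0.15), Ctrl-Aldo (−0.87 ± 0.11), MR-Cardio (−0.53 ± 0.36) and MR-Cardio-Aldo (−0.22 ± 0.57). The genotype difference was 0.65 ± 0.21 under aldosterone (1.57-fold, adjusted p = 0.0277) and 0.61 ± 0.15 averaged over treatments (adjusted p = 0.00287). In untreated mice it was 0.56 ± 0.21 (adjusted p = 0.0738). Without MR-Cardio-Aldo mouse 1 the difference of Socs3 under aldosterone was 0.43 (adjusted p = 0.0362). It did not pass without Ctrl-Aldo mouse 4 or 5, with adjusted p of 0.0574 and 0.0589. Nor did it pass with the spike-in offset as a covariate or with the compared groups alone.

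Ptx3 showed the clearest separation by genotype among the members. Its log2 ratios were −0.20, −0.42, −0.45, −0.18 and −0.07 in Ctrl mice and 0.26, 1.89, 0.22, −0.25 and −0.30 in Ctrl-Aldo mice. They ran from 0.77 through a median of 2.57 to 3.27 in MR-Cardio mice and from 2.68 through a median of 3.24 to 4.76 in MR-Cardio-Aldo mice. All 7 MR-Cardio mice lay above every Ctrl mouse, a separation seen in 2.95% of all genes, and no other member showed it untreated. All 6 MR-Cardio-Aldo mice lay above every Ctrl-Aldo mouse, Ctrl-Aldo mouse 2 included.

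Ptx3 means stood in the order Ctrl (−0.26 ± 0.16), Ctrl-Aldo (0.37 ± 0.89), MR-Cardio (2.25 ± 0.98) and MR-Cardio-Aldo (3.45 ± 0.83). The gene rose by 2.51 ± 0.45 in untreated MR-Cardio hearts (adjusted p = 0.000798) and by 3.09 ± 0.47 under aldosterone (adjusted p = 7.11e-05). Averaged over treatments it rose by 2.80 ± 0.32 (6.97-fold, adjusted p = 1.35e-06). Without the 5 mice of low offset the Ptx3 differences were 2.14 (adjusted p = 0.0276) and 2.98 (adjusted p = 0.00105).

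**Figure D2:**
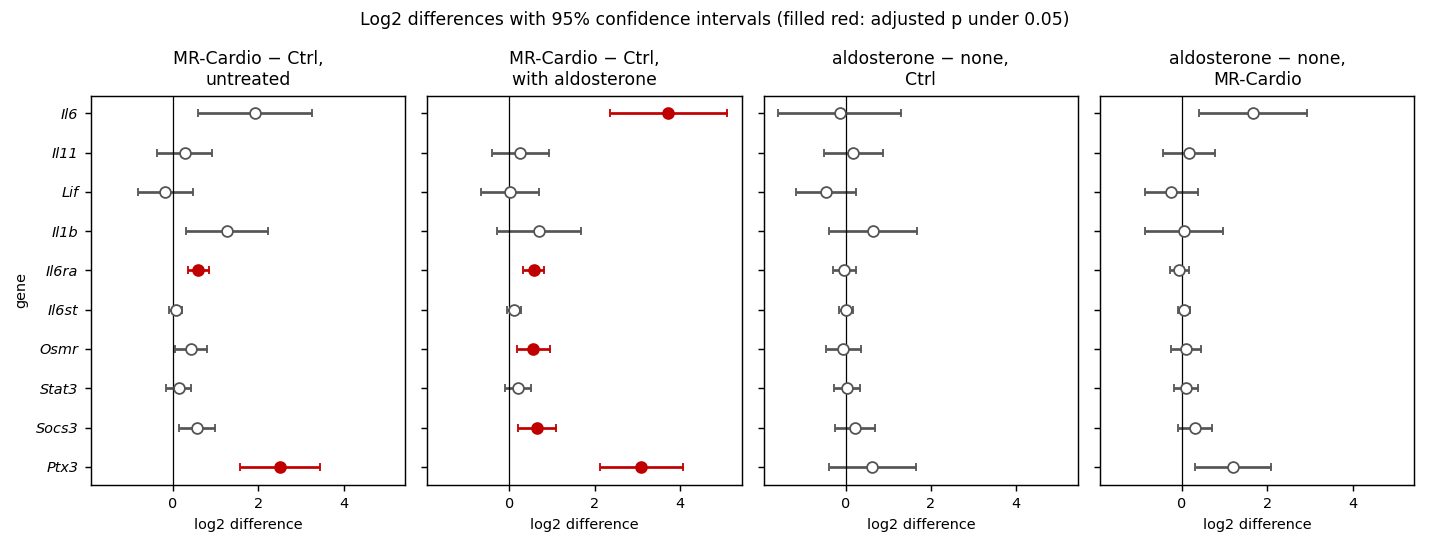
Log2 differences (horizontal axes) of the 10 genes (vertical axis) between genotypes, untreated and with aldosterone, and between aldosterone and none in each genotype, with 95% confidence intervals. Filled points passed an adjusted p of 0.05, which holds for 2 genes in the first panel, 5 in the second and 0 in the others.

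Aldosterone against no treatment gave no call among the members. In Ctrl hearts limma called 0 of all genes, which is 0%, while 1036 genes had an unadjusted p under 0.05. When only the compared groups were fitted, 8 genes rose in Ctrl hearts, with 0 members among them. Without Ctrl mouse 1 or Ctrl-Aldo mouse 3 the count was 1. The largest differences of members there were those of Il1b (0.63 ± 0.50) and Ptx3 (0.63 ± 0.49), both with an adjusted p of 1. The Ptx3 difference rested on Ctrl-Aldo mouse 2 and was 0.25 without it. The Il1b difference was 0.36 without Ctrl-Aldo mouse 2, 1.01 without Ctrl mouse 2 and 1.02 without Ctrl-Aldo mouse 5.

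In MR-Cardio hearts aldosterone changed 1.43% of all genes, 314 in number, and 0 of the 10 members. That count of genes was 697 without MR-Cardio mouse 5, 146 and 154 without MR-Cardio mouse 2 or 6, and 199, 152 and 138 without MR-Cardio-Aldo mouse 1, 2 or 4. It was 0 when only the compared groups were fitted. Il6 was 1.66 ± 0.61 higher in MR-Cardio-Aldo than in MR-Cardio hearts (interval 0.39 to 2.93, unadjusted p = 0.0129, adjusted p = 0.196), and without MR-Cardio-Aldo mouse 1 the Il6 difference was 1.08. Ptx3 was 1.20 ± 0.43 higher (interval 0.31 to 2.10, unadjusted p = 0.0105, adjusted p = 0.178), and 0.94 higher without that mouse. The Socs3 difference was 0.31 ± 0.20 (adjusted p = 0.51), and 0.08 without it. Differences of the other 7 members lay between −0.25 and 0.17.

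The interaction asks whether the aldosterone difference itself differs between genotypes. It passed in 0 of all genes, which is 0%, with 1197 at an unadjusted p under 0.05. It was 1.80 ± 0.92 for Il6 (interval −0.12 to 3.73, adjusted p = 0.922) and 0.58 ± 0.65 for Ptx3 (interval −0.77 to 1.93, adjusted p = 0.946). With aldosterone averaged over genotypes, 0.895% of all genes, 196 in number, and 0 members passed. That count was 97 to 130 without Ctrl mouse 1 or 4, Ctrl-Aldo mouse 1, 2 or 5, MR-Cardio mouse 2 or MR-Cardio-Aldo mouse 2 or 4. In the reported fit the averaged difference was 0.92 ± 0.32 for Ptx3 (adjusted p = 0.23) and 0.76 ± 0.46 for Il6 (adjusted p = 0.563). The genotype differences in untreated and in treated mice come from separate animals, but the aldosterone and genotype comparisons share groups.

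Some members also varied together among mice of the same group. Each mouse's deviation from its group mean was correlated over the 45 pairs of members (n = 23 mice, permutation within groups, two-sided). Pearson's r passed an adjusted p of 0.05 in 11 pairs and Spearman's rho in 7, and the same 7 pairs passed with both. The share of passing pairs among other genes was not computed, so these counts are not shown to be particular to the members. The 5 other genes most like Socs3, named below, gave within-group r of 0.874 to 0.922 with it, above that of every member. Mice high in Socs3 for their group were high in Ptx3 (r = 0.71, p = 8e-05, adjusted p = 0.0036, permutation test). The rank correlation of this pair was 0.67 (p = 0.001, adjusted p = 0.012, permutation test). Without the 2 mice farthest from the median of Socs3, r was 0.67.

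Osmr and Socs3 gave r = 0.83 (p = 0.0014, adjusted p = 0.032, permutation test) and rho = 0.79 (p = 0.00021, adjusted p = 0.0052, permutation test). That r was 0.64 without the 2 farthest mice and 0.61 without MR-Cardio-Aldo mouse 1. Il6st and Osmr gave r = 0.66 (adjusted p = 0.036) and rho = 0.73, Osmr and Stat3 gave r = 0.47 (adjusted p = 0.039) and rho = 0.70, and Il6 and Il6st gave r = 0.60 (adjusted p = 0.039) and rho = 0.62. Il1b gave r = 0.56 with Socs3 (adjusted p = 0.039, rho = 0.61) and r = 0.52 with Osmr (adjusted p = 0.047, rho = 0.57). Among the 18 mice with a spike-in offset above −0.3, r of these 7 pairs lay between 0.47 and 0.87. The 5 mice of low offset were too few for a value of their own.

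Il6 and Socs3 gave r = 0.71 (adjusted p = 0.039), but rho was 0.56 (adjusted p = 0.063) and r was 0.36 without the 2 mice farthest from the median of Il6. The relation of Il6 with Osmr fell in the same way from 0.70 to 0.41 and that with Il11 from 0.67 to 0.32. The mice left out were MR-Cardio-Aldo mouse 1 and MR-Cardio mouse 4. Without MR-Cardio-Aldo mouse 1 alone, r of Il6 was 0.46 with Socs3, 0.44 with Osmr and 0.47 with Il11. These relations rested in large part on that mouse. Il1b and Ptx3 passed by r (0.56, adjusted p = 0.042) and not by rho (0.51, adjusted p = 0.07). Il6 and Ptx3, the 2 genes with the largest genotype differences, gave r = 0.49 (adjusted p = 0.098).

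**Figure D3:**
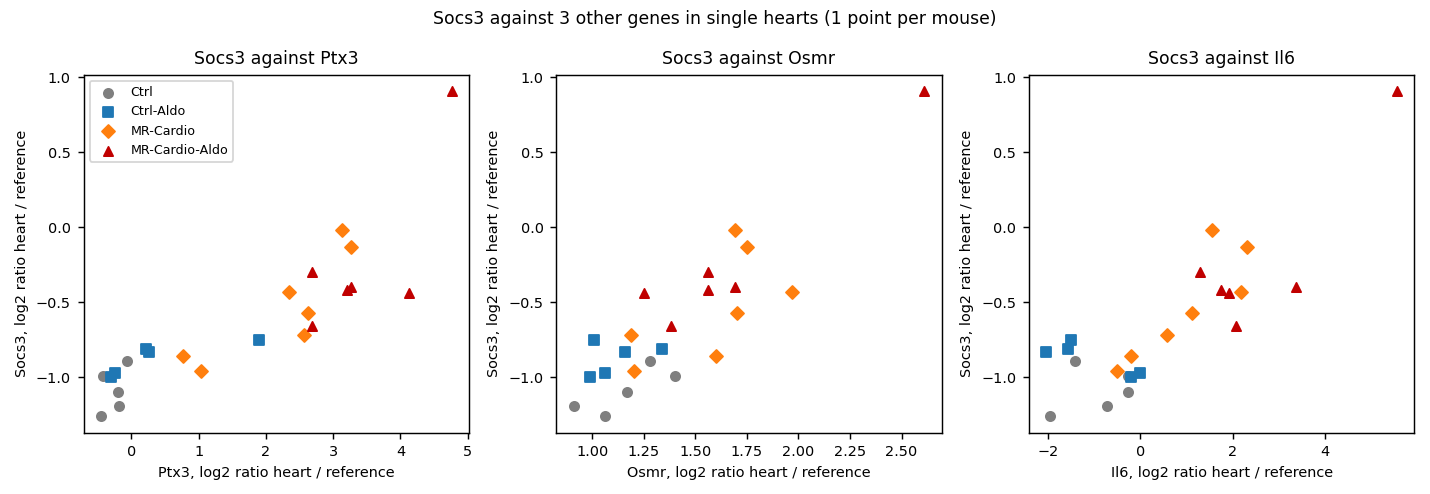
Socs3 log2 ratio (vertical axes) against that of Ptx3, Osmr and Il6 (horizontal axes), with 1 point per mouse and 1 symbol per group. MR-Cardio-Aldo mouse 1 is the point at the top of all 3 panels, with a Socs3 ratio of 0.91.

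Over all 23 arrays, group differences included, the genes most like Ptx3 by Pearson's r were Snx7 (0.952), Macir (0.940), Cebpd (0.937), Pdcd10 (0.935) and Sec22b (0.933). Within groups these values were 0.704 to 0.798. Cebpd encodes the transcription factor C/EBP delta, and its averaged genotype difference was 1.03 ± 0.13 (adjusted p = 4.95e-06). The genes most like Socs3 were Mrc1 (0.954), Rab32 (0.951), Csf2rb2 (0.944), Csf2rb (0.938) and Cotl1 (0.935), and within groups 0.874 to 0.922. Mrc1 encodes the macrophage mannose receptor, and Csf2rb encodes the shared beta chain of the receptors for GM-CSF, interleukin 3 and interleukin 5. These r are a description over arrays that share their groups and carry no test.

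Marker genes of other cell types moved beside the members. Of 12 macrophage markers, 0 passed in untreated hearts, 1 rose under aldosterone and 6 rose averaged over treatments, with a median averaged difference of 0.41 against −0.02 for all genes. The shares of all genes that rose were 5.79% untreated, 10.7% under aldosterone and 15.7% averaged over treatments. Mrc1 rose by 0.59 ± 0.15 (adjusted p = 0.00463) and Adgre1, a macrophage surface receptor gene, by 0.68 ± 0.20 (adjusted p = 0.0111), while Cd68 differed by 0.10 ± 0.19 (adjusted p = 0.732). The mean ratio of the macrophage list ran from −1.08 to −0.15 in Ctrl, −0.71 to −0.30 in Ctrl-Aldo, −0.91 to −0.01 in MR-Cardio and −0.68 to 0.51 in MR-Cardio-Aldo mice. MR-Cardio-Aldo mouse 1, which held the highest Il6, Il11, Osmr, Socs3 and Ptx3 ratios, also held the highest macrophage mean, 0.51. In its group it held the lowest cardiomyocyte mean (1.21 against 1.81 to 2.06 in the other 5 mice), the lowest endothelial mean (0.93 against 1.23 to 1.5) and the highest fibroblast mean, 3.49. Of the 6 macrophage markers that rose, C1qa, Fcgr1, Lyz2 and Ptprc did not pass without the 5 mice of low offset, with adjusted p of 0.173, 0.0528, 0.104 and 0.155.

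Of 9 fibroblast markers 8 rose averaged over treatments, against 15.7% of all genes, with a median difference of 0.70. Lum and Tcf21 did not pass without the mice of low offset (adjusted p = 0.0641 and 0.0608). Postn, which encodes the matrix protein periostin, rose by 1.90 ± 0.54 (adjusted p = 0.00916), and by 1.46 with an adjusted p of 0.0651 with the spike-in offset as a covariate. The mean of the fibroblast list ran from 0.88 to 1.58 in Ctrl, 1.25 to 1.82 in Ctrl-Aldo, 1.14 to 3.14 in MR-Cardio and 1.61 to 3.49 in MR-Cardio-Aldo mice. With the spike-in offset as a covariate, 3 of the 9 fibroblast and 4 of the 12 macrophage markers rose. Of 7 neutrophil markers 6 had low ratios in all groups, and Ly6g lay at 0.78 to 2.33. None of the 7 rose, and Camp fell by 0.42 ± 0.08 and Ngp by 0.44 ± 0.07 averaged over treatments. After division by the spike-in slope Camp differed by −0.08 (adjusted p = 0.524). With quantile normalization Camp rose by 0.26 (adjusted p = 0.0277) and Ngp differed by −0.12 (adjusted p = 0.0918). The direction of Camp and the call of Ngp therefore depended on the scaling.

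Of 4 skeletal muscle genes, Tnnt3 rose by 4.58 ± 0.34 and Tnni2 by 4.01 ± 0.27, both of which encode troponin subunits of fast skeletal muscle. Acta1 and Myh4 differed by −0.04 and −0.03 and did not pass. Mean ratios of this list were 0.85, 1.14, 2.90 and 3.35 in Ctrl, Ctrl-Aldo, MR-Cardio and MR-Cardio-Aldo hearts. Of 5 mural cell markers, Cspg4 rose by 0.67 ± 0.10 and Pdgfrb by 0.23 ± 0.06. Of 9 ventricular cardiomyocyte markers 1 rose and 1 fell, and of 7 endothelial markers 1 rose and 1 fell. Of all genes 15.7% rose and 19.3% fell averaged over treatments. The part of these cell types in the differences of Il6, Socs3, Osmr and Ptx3 was not tested.

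Other genes of the pathway were described by list. The lists of pathway genes and markers were chosen with earlier results of these data known and give no independent support. Among 24 genes known as STAT3 or acute-phase targets, 15 rose and 4 fell with genotype averaged over treatments, with a median of 0.61, against 15.7% of all genes that rose and 19.3% that fell. In untreated hearts 10 rose and 1 fell, against 5.79% and 7.82% of all genes, and under aldosterone 14 rose and 4 fell, against 10.7% and 14.4%. The part of STAT3 itself in these changes was not tested. Lcn2, which encodes the iron-siderophore binding protein lipocalin 2, rose by 2.42 ± 0.16, the acute-phase protease inhibitor gene Serpina3n by 2.29 ± 0.30, the metallothionein gene Mt2 by 2.26 ± 0.27 and the metalloproteinase inhibitor gene Timp1 by 2.23 ± 0.38. Lrg1, Has2, Fos and Ccl2 rose by 1.69 ± 0.19, 1.56 ± 0.30, 1.38 ± 0.26 and 1.16 ± 0.18. Myc, Tnfaip6, Icam1, Mt1, Bcl3 and Lbp rose by 0.44 to 0.85, besides Cebpd above.

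The targets that fell were Pim3 by 0.48 ± 0.10, Hp, the haptoglobin gene, by 0.46 ± 0.05, Mcl1 by 0.25 ± 0.06 and Cebpb by 0.24 ± 0.08. The other 5 did not pass, among them Junb at 0.47 ± 0.20 (adjusted p = 0.0799), Saa3 at 0.21 (adjusted p = 0.392) and Pim1 at −0.06 (adjusted p = 0.601). Without the 5 mice of low offset, 4 of the 24 STAT3 and acute-phase targets rose and 1 fell in untreated hearts, and 13 rose and 3 fell under aldosterone. With the offset as a covariate Bcl3, Junb, Myc, Icam1, Has2 and Cebpb did not pass under aldosterone (adjusted p = 0.0641 to 0.132). Averaged over treatments, Lbp (0.37, adjusted p = 0.155) and Cebpb (−0.20, adjusted p = 0.119) no longer passed without those mice, and Tnfaip6 did not with the offset as a covariate (0.69, adjusted p = 0.112). Aldosterone in MR-Cardio hearts raised Lcn2 by 1.00 ± 0.21 (adjusted p = 0.0154), and without those mice the adjusted p was 0.0544. Lcn2 did not pass there when only the compared groups were fitted, a fit that called 0 genes.

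Of 8 further ligands and soluble partners of the family measured, Osm, which encodes the OSMR ligand oncostatin M, rose by 0.57 ± 0.19 averaged over treatments (adjusted p = 0.0232). Osm did not pass without the 5 mice of low offset (0.53, adjusted p = 0.0917), with the offset as a covariate (0.56, adjusted p = 0.06) or without MR-Cardio-Aldo mouse 1 and Ctrl-Aldo mouse 2 (0.45, adjusted p = 0.0589). Ctf1, which encodes cardiotrophin 1, a gp130 ligand known from cardiomyocytes, fell by 1.22 ± 0.18 (adjusted p = 2.09e-05). It fell in untreated hearts by 0.95 ± 0.25 (adjusted p = 0.0137) and under aldosterone by 1.49 ± 0.26 (adjusted p = 0.000233). Without the mice of low offset the untreated Ctf1 difference was −0.66 (adjusted p = 0.182). The other 6 did not pass, while 15.7% of all genes rose and 19.3% fell averaged over treatments. Among 4 further receptor chains, Cntfr, which encodes the chain for ciliary neurotrophic factor, rose by 0.90 ± 0.13 (adjusted p = 2.47e-05) and Il27ra rose by 0.54 ± 0.11 (adjusted p = 0.000711). Lifr, the gene of the LIF receptor, differed by −0.07 ± 0.07 (adjusted p = 0.488) and Il31ra by 0.10 ± 0.12 (adjusted p = 0.55).

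Of 8 transducers of the pathway 2 rose and 3 fell averaged over treatments, against 15.7% and 19.3% of all genes. Ptpn11, which encodes the phosphatase SHP2, rose by 0.82 ± 0.09 and Jak2 by 0.31 ± 0.04. Gab1, the gene of an adaptor downstream of gp130, fell by 0.68 ± 0.07, Stat5b by 0.32 ± 0.09 and Tyk2 by 0.20 ± 0.06, and Jak1, Stat5a and Grb2 did not pass. Without the mice of low offset Stat5b differed by −0.28 (adjusted p = 0.0645). Of 11 inhibitors besides Socs3, Cish fell by 1.07 ± 0.14 (adjusted p = 4.77e-06) and Ptpn6, which encodes the phosphatase SHP1 of blood cells, rose by 0.44 ± 0.16 (adjusted p = 0.0431). Ptpn6 did not pass without the mice of low offset (0.39, adjusted p = 0.171), with the offset as a covariate (0.40, adjusted p = 0.118) or without MR-Cardio-Aldo mouse 1 (0.35, adjusted p = 0.0708). Cish encodes an inhibitor that STAT5 induces. It also fell with aldosterone in MR-Cardio hearts by 0.86 ± 0.18 (adjusted p = 0.0184), with an adjusted p of 0.0624 without the mice of low offset, and it did not pass there with the compared groups alone. The other 9 inhibitors did not pass averaged over treatments, among them Pias1 at 0.11 (adjusted p = 0.136), Socs2 at 0.20 (adjusted p = 0.204) and Socs4 at 0.11 (adjusted p = 0.28).

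Of 13 genes of the interleukin 1 system, 5 rose and 3 fell averaged over treatments, against 15.7% and 19.3% of all genes. Il1r2, which encodes the decoy receptor, rose by 0.88 ± 0.30, Il18 by 0.59 ± 0.22, Nlrp3 by 0.49 ± 0.15, Irak3 by 0.42 ± 0.09 and Il1r1, the gene of the signalling receptor, by 0.39 ± 0.14. Il1a fell by 0.57 ± 0.17, Irak1 by 0.24 ± 0.05 and Pycard by 0.23 ± 0.08. Without the 5 mice of low offset 2 of these genes rose and 2 fell, while Il18, Il1r1, Nlrp3 and Pycard no longer passed (adjusted p = 0.146, 0.148, 0.0864 and 0.162). With the offset as a covariate Il1r2 differed by 0.87 (adjusted p = 0.0648). Of 10 NF-kB and TNF genes, 6 rose and 0 fell, namely Tnfrsf12a, the receptor gene for TWEAK, by 0.94 ± 0.23, Nfkbiz by 0.83 ± 0.15, Tnfaip3 by 0.35 ± 0.08, Tnfrsf1a by 0.35 ± 0.08, Rela by 0.19 ± 0.04 and Relb by 0.12 ± 0.04. Without the mice of low offset Relb differed by 0.11 (adjusted p = 0.126). Tnf itself differed by 0.30 ± 0.16 (adjusted p = 0.167).

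Ptx3 was not followed by the other pentraxins as a group. Of 4 measured, the neuronal pentraxin gene Nptx1 rose by 1.99 ± 0.29 (adjusted p = 2.08e-05), while the short pentraxin genes Crp and Apcs fell by 1.20 ± 0.17 and 0.50 ± 0.06. Nptx2 differed by −0.39 ± 0.20 (adjusted p = 0.146). Crp and Apcs are made mainly in liver, and all 8 liver markers also fell with genotype, with a median of −0.92. Kidney and brain markers fell as well. Of 4 kidney markers 3 fell (median −0.44), of 6 brain markers 3 fell (median −0.38), and none of either rose. With quantile normalization the brain markers Syt1 and Gfap no longer passed (−0.02 and −0.06, adjusted p = 0.936 and 0.698). The liver marker Apoh did not pass there either (−0.16, adjusted p = 0.193). After division by the spike-in slope Gfap differed by −0.2 (adjusted p = 0.146). The reference pool held liver, kidney and brain RNA, and its part in the falls of Crp, Apcs and these markers was not tested.

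**Figure D4:**
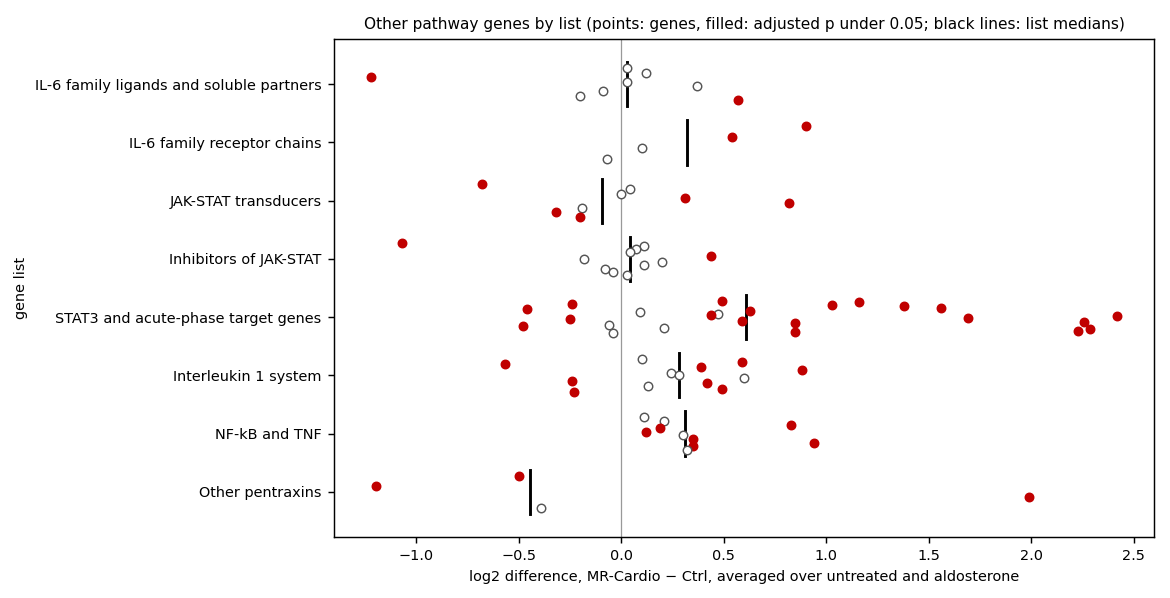
Log2 difference between genotypes averaged over treatments (horizontal axis) of each other pathway gene, by list (vertical axis), with filled points for genes that passed and black lines for list medians. The STAT3 and acute-phase targets have a median of 0.61 and the other pentraxins one of −0.44.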

How the data were processed

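Total RNA of mouse ventricles was labelled with Cy5 and hybridised with a Cy3-labelled tissue pool to 2-colour Agilent arrays, per the labels. Per the submitters' processing notes the image software was Agilent Feature Extraction, version 10.7.3.1. Each deposited value is the log2 ratio of the heart channel to the reference channel for 1 probe. The base and sign were inferred from the spike-in probes and tissue markers. How the authors corrected background and normalized these ratios is not given in the sources used here. Signal over background was not used here. The number of arrays limits the precision.

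After removal of 56 control probes, 39429 probes remained, 30625 of them with 1 gene symbol, 0 with several and 8804 unnamed. Averaging the probes of each gene left 21892 genes. Nothing was normalized further. limma 3.58.1 in R 4.3.3 (lmFit with 1 mean per group over all 23 arrays, eBayes defaults) tested 7 comparisons, two-sided, with Benjamini-Hochberg adjustment over all genes at 0.05. Folds are powers of 2 of log2 differences. The fit was tested on simulated data. Correlations used 100000 permutations within groups (scipy 1.17.1, numpy 2.4.6). Motifs were searched in RefSeq windows, and all 10 members matched by symbol.

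Members and lists were chosen with earlier results of these data known. All members are named, with the 5 genes most like Ptx3 and Socs3 over the arrays, pathway genes that passed averaged over treatments and up to 3 others per list by smallest p. Cell type markers are given as counts with examples chosen after their values were seen. Alternatives covered scaling, probe choice, the fit, a filter on low ratios and leaving out each mouse. The fits on mice with a spike-in offset above −0.3 and without MR-Cardio-Aldo mouse 1 and Ctrl-Aldo mouse 2 were added after seeing the data.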

Additional observations from a re-analysis of the deposited data

Results flagged for a closer look

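In 40 sets of 1 gene in 1 group, 6 held a mouse whose gap to its nearest neighbour exceeded Dixon's 95% critical value, and chance flags about 1 in 20 such sets. In MR-Cardio-Aldo mouse 1, Socs3 was 0.91 against −0.66 to −0.30 in the other 5 mice, Osmr was 2.61 against 1.25 to 1.69 and Il11 was 2.52 against 0.55 to 1.23. Il11 in Ctrl-Aldo mouse 3 was 0.43, below 1.00 to 1.14 in the others. Il1b in Ctrl mouse 2 was −1.71, above −3.80 to −3.37 in the others. Ptx3 in Ctrl-Aldo mouse 2 was 1.89, above −0.30 to 0.26 in the others.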

How the results depend on the processing

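Over all alternatives run, 2361 of 2399 member values stayed on their side of the threshold, 24 passed newly and 14 no longer passed. No called value changed sign, and 85 values that had not passed did. Untreated, the count of members called moved from 2 to 5 after division by the spike-in slope, 4 with the compared groups alone, 6 with array quality weights, 1 without the 25% of genes with the lowest mean ratios and 5 without MR-Cardio-Aldo mouse 1 and Ctrl-Aldo mouse 2. Il6 passed there with quantile normalization (adjusted p = 0.0439) and missed at 0.0504 in the values reported. Under aldosterone the count fell from 5 to 3 with the spike-in offset as a covariate, with the compared groups alone and without the low-ratio genes. With the covariate, and with the compared groups alone, the members lost were Osmr and Socs3. With genotype averaged it fell from 6 to 3 without the low-ratio genes. That filter left 16419 genes and removed Il6ra, Socs3 and Il1b themselves. With each mouse left out in turn the counts ranged from 2 to 5 untreated, 3 to 5 under aldosterone and 5 to 6 averaged. The untreated count of 5 arose without MR-Cardio mouse 2 or MR-Cardio-Aldo mouse 1, and the count of 3 under aldosterone without Ctrl-Aldo mouse 4 or 5. Counts for aldosterone and the interaction were 0 under every alternative run. Correlated pairs numbered 7 by Spearman's rho and 11 by Pearson's r. With the sample number as a replicate block Il1b averaged over treatments was 0.99 (adjusted p = 0.0757), and no other member call changed. Same-numbered mice did not deviate together on average (mean r = −0.008 over 31 pairs, from −0.16 to 0.28). An average over all genes cannot exclude that some same-numbered mice were handled together. Whether dim spots limit the low ratios of Il1b and Il6 cannot be told without signal over background, which was not used here.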
